A study of Mus musculus with 36 samples.

Results

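The transcription factor genes *Pax5*, *Ebf1*, *Tcf3*, *Foxo1*, *Tcf12*, *Lef1* and *Pou2af1*, 7 genes of the early B lineage, were followed through every RNA-seq condition of a mouse study of the deacetylase SIRT7 and of Pax5. They were taken by gene symbol. All 7 passed the filter on low values in each of the 3 count tables, out of 17649 genes tested in sorted bone marrow (BM) cells, 13345 in Pax5-/- cells and 13651 in cultured wild-type and Sirt7-/- cells.

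*Tcf3* and *Tcf12* encode E proteins, basic helix-loop-helix factors that open the B cell program and are held back by the Id proteins. With E proteins and the forkhead factor Foxo1, Ebf1 specifies the lineage and activates *Pax5*, and Pax5 in turn maintains *Ebf1* and commits the cell to the B lineage. Lef1 is a DNA-binding partner of beta-catenin in Wnt signalling, known in this tissue for its activity in pro-B cells, and Pou2af1 is the coactivator that B cells pair with the octamer factors Oct1 and Oct2.

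The 24 RNA-seq libraries came in 3 tables of 4 groups with 2 libraries each. The sorted table held BM cells of 129Sv mice of both sexes, 8 to 16 weeks old, either wild type or Sirt7-/- (exons 4 to 10 of *Sirt7* deleted in every cell). Both stages were gated as B220+ and IgM-, the pro-B cells being CD43+ and the pre-B cells CD43-, and each stage of a genotype was sampled in 2 individual animals. The Pax5-/- table held Pax5-/- pro-B progenitors on the C57BL/6 background. They received a retrovirus with no insert (EV), wild-type Pax5 (Pax5Wt), Pax5 with a lysine changed to glutamine (K198Q), which mimics acetylation, or Pax5 with the same lysine changed to arginine (K198R), which mimics the deacetylated state. The labels describe these cells as BM pro-B cells and the study's methods as derived from fetal liver. The cultured table held wild-type BM pro-B cells with EV and Sirt7-/- BM pro-B cells with EV, Pax5Wt or K198R. All transduced cells grew on a mitomycin C-inactivated OP9 stromal feeder with IL-7, SCF and FLT3-L, and were sorted for a marker of the vector, human CD4 in the methods for pro-B cells, although GFP is also named for the Sirt7-/- cells. In the libraries given a form of Pax5 the *Pax5* count can include transcript of the insert, which EV lacks. For the sorted libraries the cell type field of the labels contradicted the titles, and the stage was taken from the titles.

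Sorted libraries held 50004827 to 55536608 reads. The normalized counts of a library summed to 28865461 to 30520853 in the Pax5-/- table and to 27814214 to 30160880 in the cultured table. Values below are read counts normalized by median-of-ratios size factors, and the tables were normalized separately. The deleted gene checked the Sirt7 labels. At the pro-B stage *Sirt7* was at 2692 and 2533 in wild type, against 363 and 366 in the mutant (log2 fold change -2.84, adjusted p = 0.00292). At the pre-B stage it was at 5613 and 5219, against 1066 and 821 (-2.53, adjusted p = 0.00931). The B lineage marker *Cd79a*, a signalling chain of the B cell receptor, was at 117575 or more in all 8 sorted libraries and at 27604 or more in all 8 cultured libraries, whereas the 2 Pax5-/- EV libraries held 2282 and 2247. No library of the Pax5-/- table had an intact *Pax5*, so that label had no control to be read against.

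ChIP-seq of Pax5 in Pax5-/- cells carrying Pax5Wt, K198Q or K198R, with 2 peak lists per form, addressed where each form was bound. Within the 7 genes and 10 kb on either side, the lists held 42 sites, of which 21 were found in both replicates of at least 1 form. Of the 21, 11 had their summit in an intron, 5 upstream, 2 in an exon and 3 downstream. In both Pax5Wt lists a site was found at 6 of the 7 genes (all but *Foxo1*), against 44.4% of all 13282 genes examined. With K198R all 7 did, against 50.3% of genes, and with K198Q only *Ebf1* and *Pou2af1* did, against 17.6%. Taken singly, the K198Q lists held a site at 4 and 6 of the 7 genes. The shares given here are for peaks in both lists, so these counts have no share to be set against. Long genes carry more peaks: among the 1912 genes at least as long as *Foxo1*, the shares were 52.8%, 59.2% and 23.4%. The K198Q lists were also the shortest, with 3750 and 3957 peaks, against 10646 and 11830 for Pax5Wt and 12158 and 13997 for K198R.

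One site per gene is shown as sequence, the one with the highest mean enrichment with Pax5Wt or, for *Foxo1*, the one found in both K198R lists. For 5 genes the sequence is the summit with 75 bases on either side. For *Foxo1* and *Lef1*, where that stretch runs into transcribed sequence, it is the 150 bases just before the outermost start in GENCODE or RefSeq. For *Lef1* that is a RefSeq start upstream of the GENCODE gene start at 131110471, from which distances are given below. The *Lef1* summit lies in that stretch, and the *Foxo1* summit lies 33 bases beyond its end. All are from GRCm38 on the strand of the gene, with a match to a searched motif in capitals.
Ebf1 intron, chr11:44950510-44950660: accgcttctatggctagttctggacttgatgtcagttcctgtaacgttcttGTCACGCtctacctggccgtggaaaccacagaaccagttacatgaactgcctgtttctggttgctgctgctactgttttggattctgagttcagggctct
Tcf12 intron, chr9:71993723-71993873: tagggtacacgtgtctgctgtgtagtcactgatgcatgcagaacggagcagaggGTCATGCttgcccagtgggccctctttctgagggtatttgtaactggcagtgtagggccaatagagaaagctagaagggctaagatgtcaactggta
Pou2af1 upstream, chr9:51213131-51213281: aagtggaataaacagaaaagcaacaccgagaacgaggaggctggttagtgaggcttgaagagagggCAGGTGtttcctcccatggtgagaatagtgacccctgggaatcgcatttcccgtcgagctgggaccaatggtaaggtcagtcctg
Pax5 intron, chr4:44701612-44701762: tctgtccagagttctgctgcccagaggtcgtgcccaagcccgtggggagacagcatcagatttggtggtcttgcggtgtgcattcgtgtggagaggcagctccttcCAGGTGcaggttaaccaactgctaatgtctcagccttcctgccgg
Foxo1 promoter, chr3:52268186-52268335: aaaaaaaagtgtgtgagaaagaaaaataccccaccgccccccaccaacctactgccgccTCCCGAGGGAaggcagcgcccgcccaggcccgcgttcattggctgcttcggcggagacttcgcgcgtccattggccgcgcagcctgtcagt
Tcf3 intron, chr10:80429869-80430019: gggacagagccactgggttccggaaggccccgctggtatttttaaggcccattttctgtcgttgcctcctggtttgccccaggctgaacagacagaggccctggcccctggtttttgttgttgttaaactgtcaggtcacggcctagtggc
Lef1 promoter, chr3:131110147-131110296: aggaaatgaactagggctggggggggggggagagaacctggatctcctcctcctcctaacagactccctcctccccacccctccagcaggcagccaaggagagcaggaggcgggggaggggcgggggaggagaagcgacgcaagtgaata

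In the *Ebf1* and *Tcf12* windows the capitals mark the Pax5 core GCNTGAC on the opposite strand, searched on both strands and found in 14.2% of the 7908 Pax5Wt peaks shared by both replicates and in 10.7% of 32815 RefSeq promoter windows of 300 bases. In the *Ebf1* window the match was the GCGTGAC form, which GCNTGAC contains, found in 5.46% of those peaks and 2.09% of promoters. In the *Pou2af1* and *Pax5* windows the capitals mark the E box CAGGTG, the kind of site that E proteins bind, found in 13.5% of peaks and 20.2% of promoters. Those promoter windows are longer than the 151 bases searched in each peak. In the 150 bases before RefSeq starts the shares were 5.73% for GCNTGAC, 1.24% for GCGTGAC and 10.6% for CAGGTG. In the *Foxo1* window the capitals mark the Ebf1 palindrome, TCCC and GGGA with 2 bases between, found in 0.448% of stretches of that length just before the 32815 RefSeq starts. That match lies 114 bases from the summit, outside the stretch searched in the peaks. The *Tcf3* and *Lef1* windows held none of these, nor the octamer ATGCAAAT of Oct1 and Oct2 or the forkhead GTAAACA, found in 0.986% and 1.42% of the peaks and in 1% and 1.8% of the stretches before starts. The *Foxo1* window held 14 CpG dinucleotides, and the other 6 held 2 to 5.

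The site with the highest mean fold enrichment with Pax5Wt lay in an *Ebf1* intron, 333.3 kb from the gene start, with its summit at chr11 position 44950585. Its fold enrichment over input was 13.1 and 15.6 with Pax5Wt, 4.52 and 8.44 with K198Q and 11.7 and 14.1 with K198R. Both K198Q values were below all 4 others. The site 502 bp upstream of *Pou2af1*, whose sequence is printed above, was the other one present in all 6 lists, at 13.6 and 10.7, 5.04 and 6.03, and 6.12 and 14.9. Both K198Q values were again below all 4 others, with the higher of them close to the lower K198R value, and Pax5Wt and K198R overlapped at both sites.

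At *Tcf3* the site 3.7 kb into the gene had a fold enrichment of 19.0 and 16.0 with K198R, 5.02 and 6.91 with Pax5Wt and 6.59 in 1 of the 2 K198Q lists. Both K198R values were above every value of the other forms. The 4 further *Tcf3* sites in both K198R lists included one 42 bp inside the gene at 6.28 and 7.96, where 1 Pax5Wt list had 5.13 and neither K198Q list had a peak. *Foxo1* had its one shared peak at its own start, with the summit 32 bp inside the gene, and only with K198R (6.04 and 5.15). *Lef1* was bound 188 bp upstream of its start with Pax5Wt (6.28 and 5.93), with K198R (4.63 and 8.46) and in 1 K198Q list (6.98). The forms overlapped at that site. *Lef1* had 3 sites in both K198R lists, 2 in both Pax5Wt lists and none in both K198Q lists. *Tcf12* was bound by Pax5Wt (4.51 and 7.34) and K198R (3.75 and 10.4) at the intron site printed above and had no K198Q peak there. At *Pax5* itself the intron site 8.8 kb inside the gene was at 5.87 and 4.29 with Pax5Wt and 4.47 and 7.17 with K198R. In K198Q replicate 2, 5 of the 6 *Pax5* sites had their summit in a *Pax5* exon. The retroviral insert carries exon sequence too, so signal from the gene and from the insert cannot be told apart at those 5 sites. Peaks were called in each sample, and with 2 lists per form no exact test of a difference between forms can pass 0.05.

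**Figure D1:**
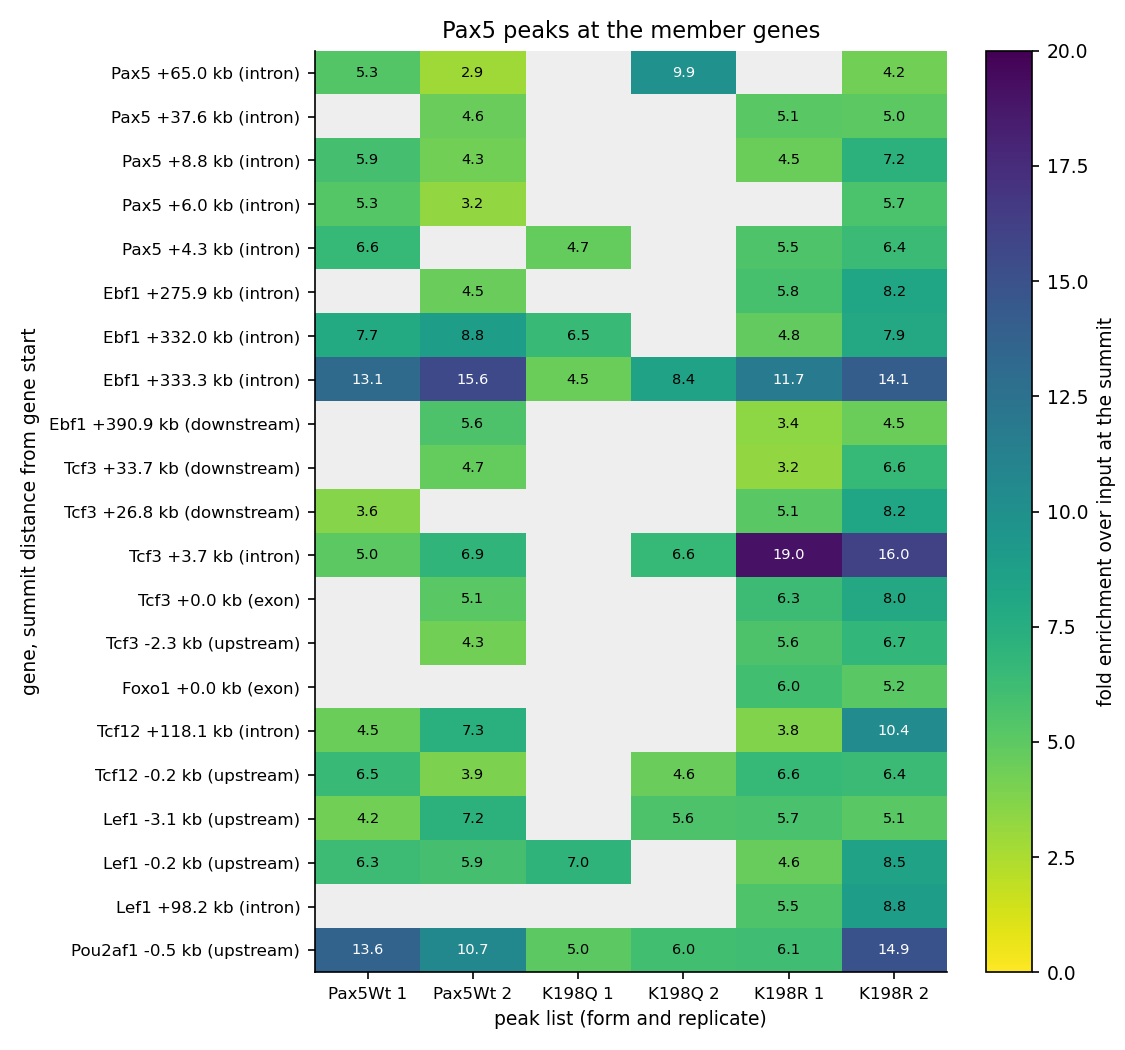
Fold enrichment of Pax5 ChIP over input (color) at the 21 sites of the 7 genes that were found in both replicates of at least 1 form (rows) in the 6 peak lists (columns); grey means that the list had no peak there. The Ebf1 site at 333.3 kb and the Pou2af1 site are filled in all 6 lists, the Tcf3 site at 3.7 kb is highest with K198R, and most K198Q cells are grey.

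In sorted cells the question was how the genes change from pro-B to pre-B cells and whether SIRT7 matters at either stage. In wild-type cells all 7 genes changed between the stages: 6 rose and *Lef1* fell. Across all tested genes 18.1% rose and 22% fell. The median log2 fold change of the 7 genes was 0.62, against -0.04 over all genes tested.

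The E protein gene *Tcf3* was at 84931 and 80694 in wild-type pro-B cells, against 115408 and 108457 at the pre-B stage, a 1.35-fold rise (log2 fold change 0.43 ± 0.0895 SE, adjusted p = 0.00855). The other E protein gene, *Tcf12*, went from 6620 and 9014 to 14375 and 14453 (0.90 ± 0.168, adjusted p = 0.00573). The groups did not overlap for either gene, as for 72.6% of all tested genes in either direction. The *Tcf3* call was lost without pro-B replicate 2 (adjusted p = 0.056). *Foxo1*, which drives recombinase and IL-7 receptor genes, showed the largest rise of the 7. It went from 15268 and 16519 to 35071 and 32474, a 2.12-fold rise (1.09 ± 0.0812, adjusted p = 0.000229).

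*Ebf1* moved least, from 45427 and 42520 to 59611 and 51355, or 1.26-fold (0.33 ± 0.108, adjusted p = 0.0469). This call was lost when any 1 of 3 of the 4 wild-type libraries was left out (adjusted p = 0.0997 without pro-B replicate 1, 0.192 without pro-B replicate 2 and 0.21 without pre-B replicate 1). *Pax5* went from 92893 and 83828 to 146580 and 125289 (0.62 ± 0.108, adjusted p = 0.00432), and *Pou2af1* from 87980 and 91971 to 144375 and 133933 (0.63 ± 0.0703, adjusted p = 0.000764). Every pre-B library lay above both pro-B libraries for these 3 genes, where 72.6% of all tested genes did not overlap in either direction.

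*Lef1* went the other way. It was at 22230 and 27963 in wild-type pro-B cells, against 5691 and 6339 at the pre-B stage (-2.05 ± 0.233, adjusted p = 0.000802). In Sirt7-/- mice the pro-B libraries held 27497 and 30047 and the pre-B libraries 5289 and 8794 (-2.08, adjusted p = 0.00117). Other markers moved between the stages as well. In wild-type cells 7 of 9 pro-B stage markers fell, with *Dntt* going from 19432 and 26828 to 131 and 157, and 13 of 16 T cell markers fell, their summed level going from 10077 and 10635 to 3560 and 3419. *Lck* was the most abundant T cell marker, at 4511 and 4293 in wild-type pro-B cells, against 3113 and 2961 at the pre-B stage. The defining T cell gene *Cd3e* was at 18.7 and 44.8 in wild-type pro-B cells and at 0 in all 4 pre-B libraries. The sum of 12 myeloid markers went from 34794 and 25457 to 15806 and 15495, and the plasma cell marker *Jchain* from 20006 and 57036 to 881 and 1307. All 11 immature and mature B cell markers rose, from summed levels of 66818 and 74655 to 361854 and 229519. In bulk samples, fewer cells of a type and less RNA per cell cannot be told apart, and the part of such cells in the changes of the 7 genes was not tested.

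In Sirt7-/- cells 6 of the 7 genes changed between the stages: 5 rose and *Lef1* fell, where 16.5% of all tested genes rose and 19.2% fell. *Foxo1* went from 16309 and 16720 to 28653 and 30662 (0.84, adjusted p = 0.000724). The other 4 log2 fold changes among the calls were 0.51 for *Pax5* (adjusted p = 0.0114), 0.47 for *Tcf3* (0.00758), 0.67 for *Tcf12* (0.0215) and 0.66 for *Pou2af1* (0.000993). *Ebf1* did not pass the test, with 42042 and 46313 against 45060 and 51407 (0.13, adjusted p = 0.406). Its groups overlapped, although the pre-B library held more than the pro-B library of the same number, taken to be from the same mouse, both times. With the mouse so taken as a block *Ebf1* did not pass either (adjusted p = 0.208). The difference between the genotypes was tested itself. Limma, edgeR and DESeq2 called the interaction of stage and genotype for 0 of the 7 genes, where limma called 0.00567% of all genes. In limma 0 of the 7 had an unadjusted p under 0.05, against 5.43% of all genes. The interaction was -0.21 for *Ebf1*, -0.23 for *Tcf12*, -0.24 ± 0.115 for *Foxo1* (adjusted p = 0.909) and between -0.11 and 0.04 for the other 4 genes.

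The second Sirt7-/- pre-B library stood apart from the first. It held *Lef1* at 8794 against 5289, *Dntt* at 3838 against 423, *Thy1*, a T cell and progenitor marker, at 323 against 43.7, and a summed level of 9 erythroid markers of 73028 against 8849. The pro-B library with the same number, taken to be from the same mouse, was also high in erythroid markers, at 48522 against 11085. Without that pre-B library, *Lef1* still fell in the mutant (-2.44, adjusted p = 0.000702) and *Tcf12* no longer passed (0.50, adjusted p = 0.0917). *Tcf12* also missed the threshold without either Sirt7-/- pro-B library, and *Pax5* missed it without pre-B replicate 1 (0.46, adjusted p = 0.0624) or pro-B replicate 2 (0.43, adjusted p = 0.0699).

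Limma called none of the 7 genes between Sirt7-/- and wild-type cells, where calls were 0.0623% of all genes at the pro-B stage and 0.085% at the pre-B stage. At an unadjusted p under 0.05 there was 1 at each stage, *Tcf12*, where 5.94% and 13.6% of all genes passed that mark. The gene with the largest difference was *Tcf12*. At the pro-B stage it was at 5059 and 5593 in the mutant, against 6620 and 9014 (-0.54 ± 0.168, adjusted p = 0.74). At the pre-B stage it was at 7543 and 9450, against 14375 and 14453 (-0.77 ± 0.168, adjusted p = 0.157). Both mutant libraries lay below both wild-type libraries at each stage. DESeq2 on the whole reads, which called none at the pro-B stage, called the pre-B difference of *Tcf12* (-0.77, adjusted p = 0.00352) and edgeR did not (-0.76, adjusted p = 0.177). *Pou2af1* was also lower in each mutant library at both stages, by 0.15 and 0.12 on the log2 scale, and *Foxo1* in pre-B cells, by 0.19, without passing the test. Both mutant libraries were thus below both wild-type libraries for 2 of the 7 genes at the pro-B stage and 3 at the pre-B stage, where 19.8% and 19.4% of all genes showed this. For *Pax5* the difference was -0.01 at the first stage and -0.12 at the second.

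**Figure D2:**
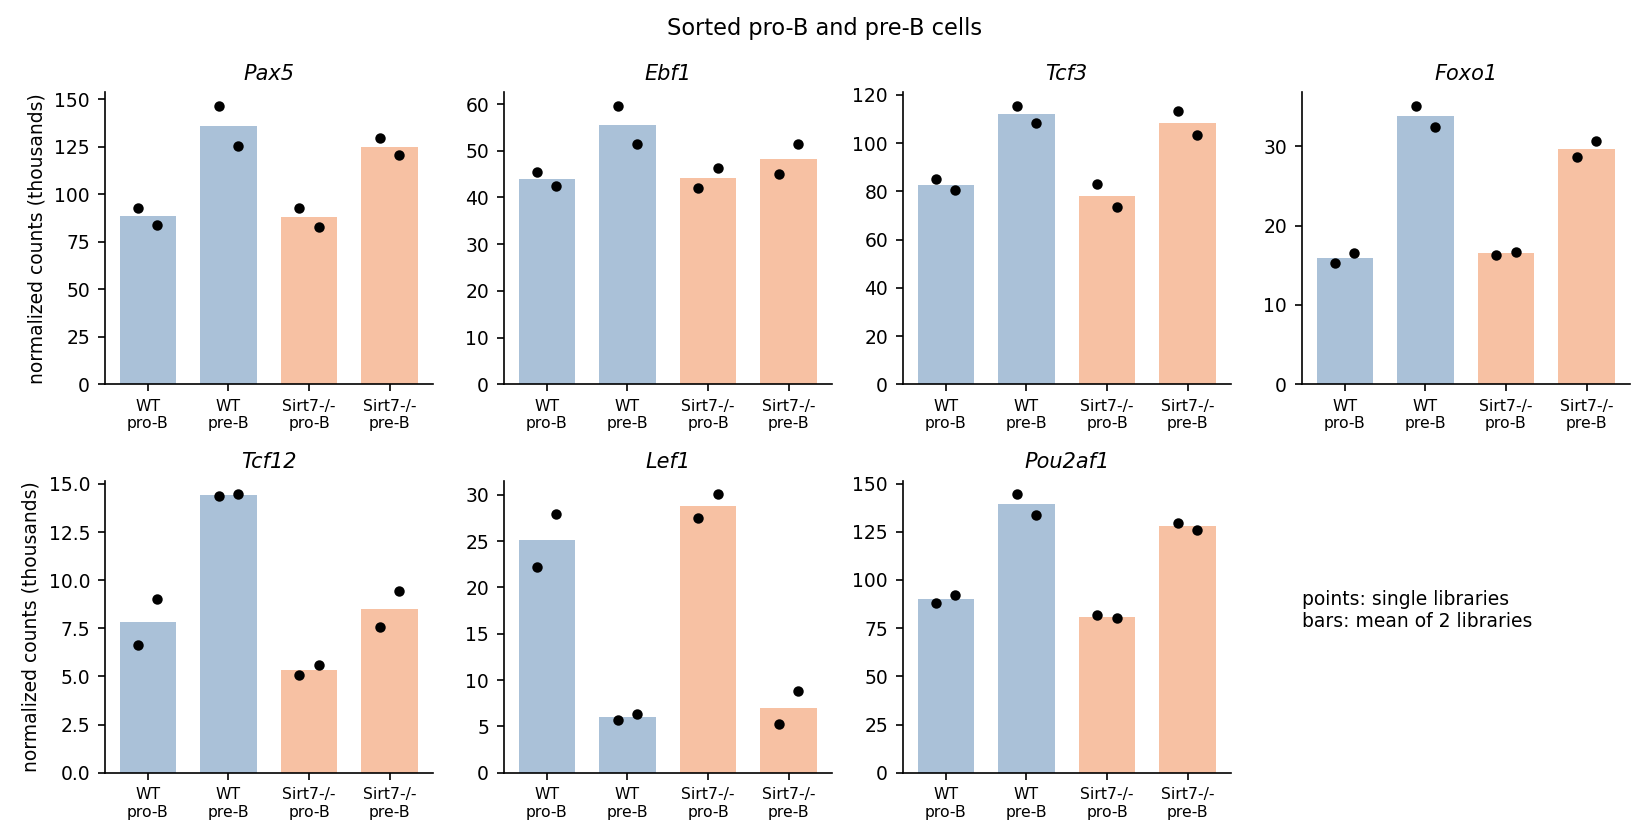
Normalized counts (linear axis from 0, in units of 1000) of the 7 genes in sorted cells of both genotypes and stages; points are single libraries and bars the mean of 2. The Lef1 bars drop from pro-B to pre-B cells in both genotypes, the other bars are higher in pre-B cells, and for Tcf12 both Sirt7-/- points lie below both wild-type points at each stage.

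Per kilobase of merged exon, the order of the 7 levels in wild-type pro-B cells was *Pou2af1* (35298 ± 1107 normalized counts per kb, SD, n = 2), *Tcf3* (20503 ± 742), *Pax5* (9981 ± 724), *Ebf1* (4507 ± 211), *Lef1* (2856 ± 461), *Foxo1* (1834 ± 102) and *Tcf12* (503 ± 109). No 2 neighbors in this order overlapped. In wild-type pre-B cells *Lef1* was last, at 684 ± 52.2 per kb, behind *Tcf12* at 928 ± 3.52. In Sirt7-/- pre-B cells *Lef1* (801 ± 282) and *Tcf12* (547 ± 86.8) overlapped. The first 4 places were the same in all 4 sorted groups.

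Relatives and partners of the 7 genes were taken from gene lists, each given with its median log2 fold change in wild type, against -0.04 over all genes tested. Of the 3 other FoxO genes, *Foxo4* and *Foxo3* rose from pro-B to pre-B cells in both genotypes (log2 fold change 1.28 and 0.60 in wild type, list median 0.60). Of the TCF relatives and beta-catenin, 3 of 4 fell in wild type, namely *Tcf7* (-3.16, adjusted p = 0.00975), *Tcf7l1* (-1.46) and *Tcf7l2* (-1.30), with a list median of -1.38. *Tcf7* was at 736 and 974 in wild-type pro-B cells, against 92.0 and 95.1 at the pre-B stage. In Sirt7-/- cells it was at 763 and 1099 against 102 and 527, the last value being from the library that stood apart, and 2 of the 4 fell there, *Tcf7l1* (-1.43) and *Tcf7l2* (-1.03). The octamer factor gene *Pou2f2* (Oct2), whose protein recruits Pou2af1, rose by 1.48 in wild type and 1.87 in Sirt7-/- cells, and *Pou2f1* was not called (list median 0.68 over these 2). Among the E protein relative and the Id inhibitors, 1 of 4 fell in wild type, *Id3* (-0.55, adjusted p = 0.0458), with a list median of -0.35. In Sirt7-/- cells none was called, with *Id3* at -0.45 and *Id1* at 0.48.

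Of 7 pre-B stage factors 6 rose in wild type and all 7 in Sirt7-/- cells, led by *Klf2* (2.52 in wild type), *Spib* (1.98) and *Ikzf3* (1.57), which encodes Aiolos, with a list median of 0.83 in wild type. Of 12 progenitor and partner factors, 5 rose and 1 fell in wild type, with *Erg*, a progenitor ETS factor, at -5.01, *Spi1* (PU.1) at 0.86 and *Sox4* at 0.73 (list median 0.16). Of 16 B lineage target genes 9 rose and 5 fell, and the surrogate light chain and terminal transferase genes *Dntt* (-7.30), *Vpreb2* (-6.29) and *Vpreb1* (-5.73) moved most (list median 0.42). The single Ebf or Pax relative tested, *Ebf4*, was at -2.88 and was not called (adjusted p = 0.16). No gene of these lists was called between the genotypes at either stage or for the interaction.

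In Pax5-/- cells the question was which of the genes follow a returned Pax5 and whether the form of Pax5 matters. Pax5Wt raised *Ebf1*, *Foxo1* and *Lef1*, K198Q raised *Ebf1* and *Lef1*, and K198R raised *Ebf1*, *Foxo1* and *Pou2af1*. *Lef1* was lower with K198R than with either other form. *Tcf3* and *Tcf12* passed the test with none. The study's methods state that RNA-seq replicates were made on different days, and the fit with the replicate number as a block is given beside each call that it changed. The *Pax5* count can include transcript of the insert, which EV lacks. Counting *Pax5* itself, 4, 3 and 4 of the 7 genes rose and none fell, where 2.25%, 0.869% and 3.87% of all tested genes rose. With the replicate block it was 5, 4 and 5, where 10.1%, 2.72% and 21.2% of all genes were called in either direction, in place of 3.25%, 0.922% and 9.92%. The 3 comparisons share the same EV libraries. Over all tested genes 42.6% with Pax5Wt, 34.2% with K198Q and 46.8% with K198R did not overlap EV, in either direction. The median log2 fold changes of the 7 genes, *Pax5* included, were 0.71, 0.45 and 0.72, against 0.00, -0.01 and 0.01 over all genes tested.

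The *Pax5* count was 2201 and 2103 in EV cells, whose vector has no insert. With transcript of the insert included, it was 6458 and 6152 with Pax5Wt, 8918 and 8963 with K198Q and 21162 and 16610 with K198R. The groups did not overlap, and K198R exceeded Pax5Wt (1.57, adjusted p = 0.0029) and K198Q (1.07, adjusted p = 0.00526). The form of Pax5 and the level of its transcript therefore differ together in every comparison of K198R with another form, and their parts cannot be told apart.

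*Ebf1*, the gene with the highest mean enrichment of Pax5Wt above, was at 2760 and 3007 in EV cells. It was at 6469 and 7608 with Pax5Wt, 5545 and 6135 with K198Q and 6726 and 7875 with K198R. Every library with a form of Pax5 was above both EV libraries, by 2.44-fold (log2 fold change 1.28 ± 0.121 SE, adjusted p = 0.0018), 2.03-fold (1.02, adjusted p = 0.00948) and 2.53-fold (1.34, adjusted p = 0.000878). The K198Q call rested on most of its libraries, since it was lost without K198Q replicate 1 (adjusted p = 0.0724), K198Q replicate 2 (0.0978) or EV replicate 1 (0.086). Between forms *Ebf1* did not pass the test (0.05 for K198R against Pax5Wt, -0.27 for K198Q against Pax5Wt, and 0.32, adjusted p = 0.228, for K198R against K198Q), and with the replicate block K198R passed against K198Q (adjusted p = 0.0129).

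*Foxo1* was at 2094 and 2042 in EV cells, 3420 and 3329 with Pax5Wt, 2943 and 2709 with K198Q and 4915 and 4901 with K198R. The 4 groups did not overlap. The rise with Pax5Wt was 1.63-fold (0.71 ± 0.0844, adjusted p = 0.00541) and with K198R 2.37-fold (1.25, adjusted p = 0.00024), while K198Q fell short of the threshold (0.45, adjusted p = 0.0725) and passed it with the replicate block (adjusted p = 0.0111). K198R was above Pax5Wt (0.54, adjusted p = 0.0189) and above K198Q (0.80, adjusted p = 0.00475). The Pax5Wt rise missed the threshold without either Pax5Wt library (adjusted p = 0.0608 without replicate 1 and 0.0622 without replicate 2). The difference between K198R and Pax5Wt was lost without Pax5Wt replicate 1 (0.12), Pax5Wt replicate 2 (0.174) or K198R replicate 2 (0.0701).

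*Lef1* set the forms apart. It was at 1092 and 830 in EV cells, 3114 and 3196 with Pax5Wt and 3038 and 2430 with K198Q, but at 1042 and 611 with K198R. The K198R libraries overlapped those of EV, and all 4 libraries with Pax5Wt or K198Q were above them. *Lef1* rose 3.28-fold with Pax5Wt (1.73 ± 0.25, adjusted p = 0.013) and 2.84-fold with K198Q (1.51, adjusted p = 0.0416), and was at -0.25 with K198R (adjusted p = 0.632). It was lower with K198R than with Pax5Wt (-1.98, adjusted p = 0.0102) and lower than with K198Q (-1.77, adjusted p = 0.01). The *Lef1* promoter site printed above was in both K198R lists and in both Pax5Wt lists. The K198Q call of *Lef1* was lost whichever of the 4 libraries was left out, and the 3 other calls without some of them. Without 1 library the adjusted p was up to 0.107 for Pax5Wt against EV (without Pax5Wt replicate 2), up to 0.341 for K198Q against EV (without K198Q replicate 1), up to 0.106 for K198R against Pax5Wt (without Pax5Wt replicate 2) and up to 0.0762 for K198R against K198Q (without K198Q replicate 1). Where a call against EV was lost, the log2 fold change was between 1.31 and 1.75.

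*Pou2af1* was at 7965 and 9147 in EV cells, 11632 and 13727 with Pax5Wt, 10276 and 11034 with K198Q and 12221 and 16113 with K198R. All 6 libraries with a form of Pax5 were above both EV libraries. Many genes did not overlap EV in either direction (42.6% with Pax5Wt, 34.2% with K198Q and 46.8% with K198R). Without the replicate block only K198R passed (0.72, adjusted p = 0.0235), Pax5Wt being at 0.57 (adjusted p = 0.104) and K198Q at 0.32 (0.713). With the block Pax5Wt passed (adjusted p = 0.00386), and K198R passed against K198Q (0.40, adjusted p = 0.0135). The K198R call was lost without EV replicate 1 (adjusted p = 0.142), EV replicate 2 (0.0634) or K198R replicate 2 (0.0918). The E protein genes were not called in the fit without the block. *Tcf12* was at 5476 and 4912 in EV cells and at 6037 to 6586 in the 6 other libraries, above both EV libraries each time, with log2 fold changes of 0.27, 0.28 and 0.28 that did not pass, except K198R with the replicate block (adjusted p = 0.0378). *Tcf3* stayed between 5458 and 6197 in all 8 libraries, with fold changes of -0.00, 0.01 and 0.06, and its groups overlapped, and its intron site was the one most enriched with K198R.

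**Figure D3:**
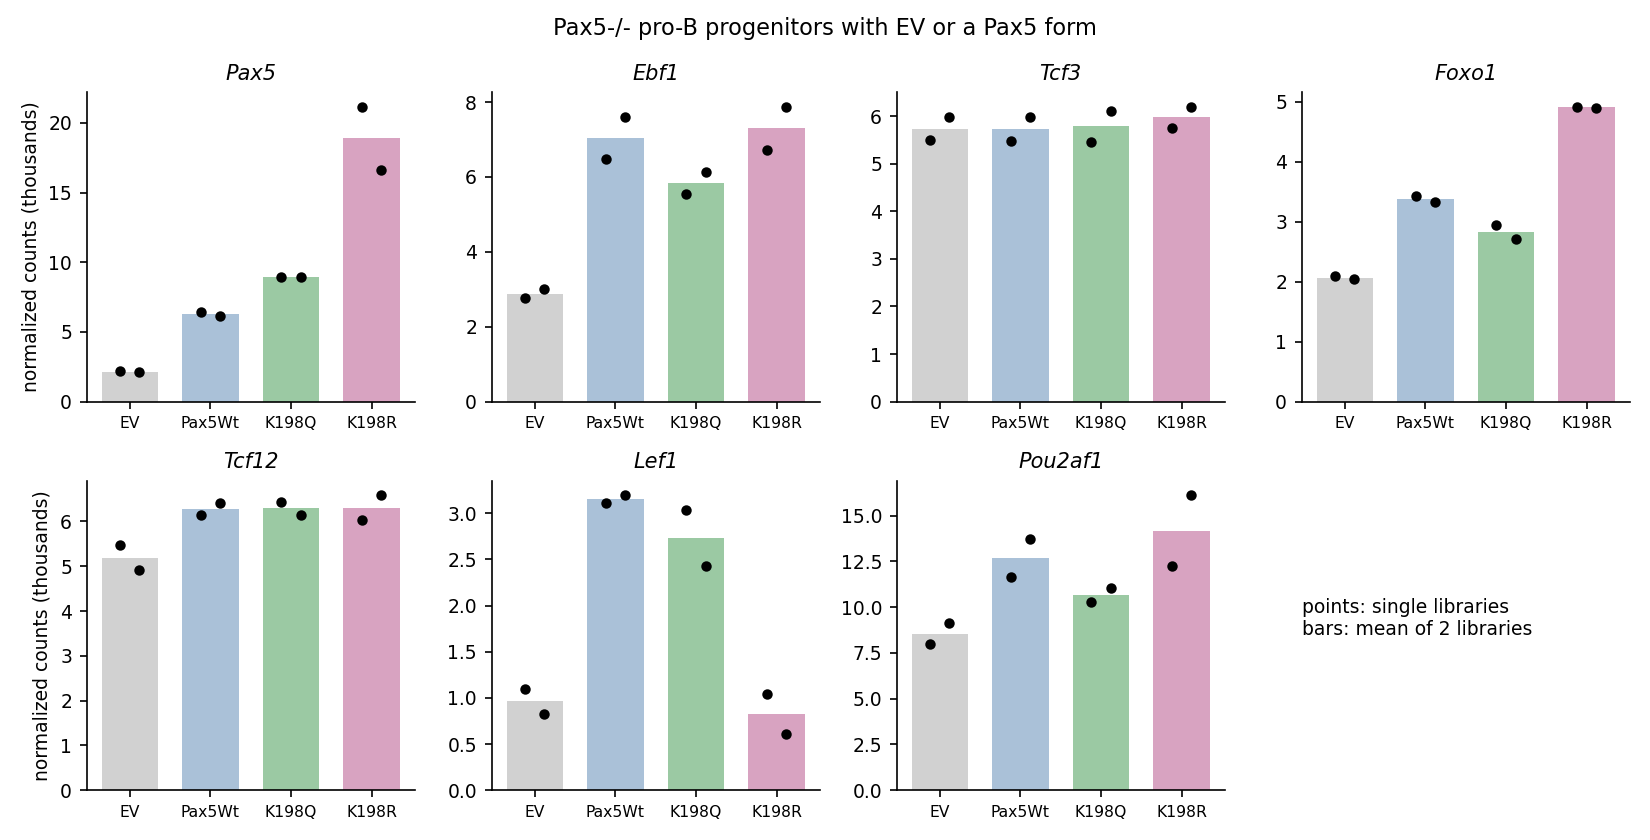
Normalized counts (linear axis from 0, in units of 1000) of the 7 genes in Pax5-/- cells with EV, Pax5Wt, K198Q or K198R; points are single libraries and bars the mean of 2. Ebf1 is above EV with all 3 forms, Foxo1 is highest with K198R, Lef1 is high with Pax5Wt and K198Q and near EV with K198R, and the Tcf3 groups overlap.

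Between K198Q and Pax5Wt limma called none of the 7 genes, where 0.0225% of all genes were called. At an unadjusted p under 0.05 there were 2, *Pax5* (0.50, adjusted p = 0.558) and *Foxo1* (-0.26), where 3.46% of all genes passed that mark. K198R against Pax5Wt called *Pax5* and *Foxo1* higher and *Lef1* lower, where 0.772% of all genes were higher and 2.1% lower. K198R against K198Q called the same 3 genes, where 1.45% of all genes were higher and 3.55% lower, and none of the 3 passed without K198Q replicate 2 (adjusted p = 0.0594 for *Pax5*, 0.0595 for *Foxo1* and 0.0681 for *Lef1*).

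Per kilobase, the order in EV cells was *Pou2af1* (3357), *Tcf3* (1421), *Tcf12* (334), *Ebf1* (296), *Pax5* (243), *Foxo1* (239) and *Lef1* (109), and *Pax5* and *Foxo1* overlapped. With Pax5Wt *Ebf1* (721 ± 82.6) passed *Tcf12* (404) and overlapped *Pax5* (712 ± 24.5). With K198R *Pax5* (2133 ± 364) stood above *Tcf3* (1480), *Ebf1* was at 748 and *Lef1* was again last at 94.1 ± 34.7. *Pou2af1* was first in each group.

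The Lef1 relative *Tcf7*, which encodes TCF-1, followed a like course. It was at 38.9 and 67.4 in EV cells, 246 and 284 with Pax5Wt, 160 and 167 with K198Q and 71.9 and 51.4 with K198R. It rose with Pax5Wt (2.34, adjusted p = 0.00838), was at 1.65 with K198Q (adjusted p = 0.0734), and was lower with K198R than with Pax5Wt (-2.10, adjusted p = 0.0156) or K198Q (-1.41, adjusted p = 0.0447). No other gene of the TCF list was called in these comparisons. *Id2*, an inhibitor of E proteins, fell with K198R, from 1569 and 996 to 490 and 217 (-1.93, adjusted p = 0.0178), and was at -1.10 with Pax5Wt (adjusted p = 0.211) and -0.57 with K198Q. None of the 2 tested FoxO relatives or the 2 octamer factors was called, with *Foxo4* at 0.26 and *Pou2f2* at 0.42 for K198R.

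Of 13 tested B lineage target genes, 9 rose with Pax5Wt, 8 with K198Q and 9 with K198R, and none fell, with list medians of 1.69, 1.21 and 2.54. *Blnk*, an adaptor of the pre-B cell receptor, was at 2.56 and 4.90 in EV cells, 915 and 954 with Pax5Wt, 547 and 397 with K198Q and 3586 and 3133 with K198R. K198R was the highest of the forms and K198Q the lowest, with no overlap. Of 7 pre-B stage factors 2 rose with Pax5Wt, 1 with K198Q and 4 with K198R, and 1 fell with K198R. *Ikzf3* rose with each form (2.33, 1.64 and 3.30), *Irf4* rose (1.56) and *Klf2* fell (-2.26) with K198R, and *Bach2* rose with Pax5Wt (0.86) and K198R (0.85). Of 12 progenitor and partner factors 2, 1 and 4 rose and none fell. *Ets1* rose with each form (1.22, 0.93 and 1.27), and *Bcl11a* rose with K198R (1.31 against EV and 1.30 against Pax5Wt).

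T cell markers were checked because *Lef1* and *Tcf7* are also T lineage genes. Their summed level was 4670 and 5763 in EV cells, 4157 and 4859 with Pax5Wt, 4606 and 4718 with K198Q and 3154 and 3776 with K198R, and *Lck* was the most abundant. The defining gene *Cd3e* was at 0 in all but 1 of the 8 libraries, which held a single normalized count. With K198R 5 of 10 markers fell against EV and 3 against Pax5Wt, namely *Thy1*, *Tcf7* and *Cd7*. Markers of NK and myeloid cells moved as well. NK cell markers summed to 2206 and 2041 in EV cells, 726 and 655 with Pax5Wt, 1374 and 1199 with K198Q and 478 and 251 with K198R. With K198R 3 of 6 fell against EV, *Il2rb* (-3.11), *Nkg7* (-2.48) and *Klrd1* (-2.27), and *Nkg7* was lower than with Pax5Wt (-1.15), while the defining NK gene *Ncr1* was at 0 in all 8 libraries. Of 8 myeloid markers 4 fell with K198R against EV, led by *Mpo* (-3.69), and *Lyz2* rose (2.28). Their sums were 2361 and 2159 in EV cells and 1320 and 920 with K198R. The plasma cell marker *Jchain* fell from 67983 and 65946 to 32232 and 26540 with K198R (-1.19, adjusted p = 0.00182), as did *Creb3l2* (-2.51). Of the same list *Irf4* rose (1.56), and *Mzb1* (0.07), *Sdc1* (0.09) and *Xbp1* (-0.58) were not called. Every library with a form of Pax5 had an NK sum below those of both EV libraries. The part of other cells in the values of the 7 genes was not tested.

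**Figure D4:**
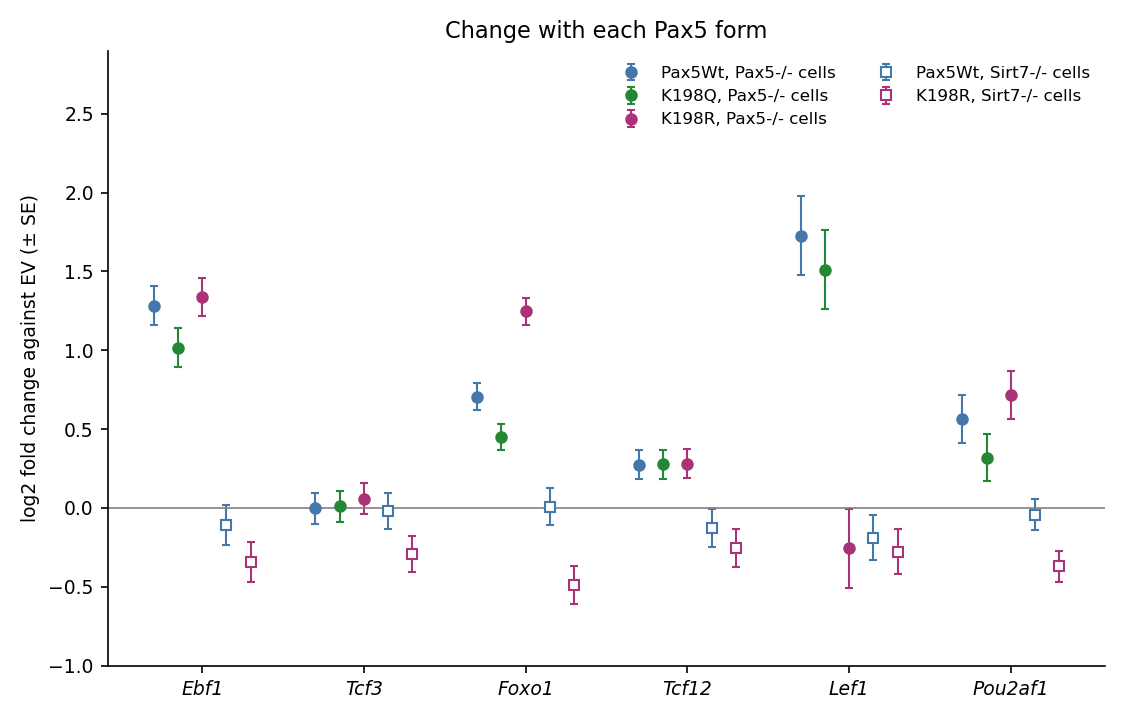
Log2 fold change against EV (bars, SE) of the 6 genes other than Pax5 for each form of Pax5, in Pax5-/- cells (filled circles) and in Sirt7-/- cells (open squares). Lef1 is raised by Pax5Wt and K198Q and not by K198R in Pax5-/- cells, and all 6 Sirt7-/- values with K198R are below 0.

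In cultured BM pro-B cells the question was whether loss of SIRT7 changes the genes and whether more Pax5, as wild type or as K198R, changes them in Sirt7-/- cells. Without the replicate block limma called none of the 7 genes in any of the 4 comparisons, where 0.557% of all genes were called between Sirt7-/- EV and wild-type EV cells, 0.0366% between Pax5Wt and EV, 4.83% between K198R and EV and 0.425% between K198R and Pax5Wt. At an unadjusted p under 0.05 there were 0, 1, 5 and 3 of the 7, against 9.68%, 9.91%, 18.4% and 8.78% of all genes. The 1 was *Pax5*, whose count can include transcript of the insert. *Pax5* was also among the 5, as the only one that was higher. With the replicate block the third comparison called 2 of the 7, where 11.6% of all genes were called, and the fourth called 1, where 2.3% were. *Sirt7* was lower in the Sirt7-/- EV cells (-1.60, adjusted p = 0.0251). Between the 2 EV groups the largest differences were 0.29 for *Pax5*, -0.23 for *Tcf3* and -0.22 for *Foxo1* (adjusted p = 0.622 and 0.674 for the last pair).

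The *Pax5* count was 23862 and 27134 in wild-type EV cells, 25995 and 37114 in Sirt7-/- EV cells, 43024 and 43260 with Pax5Wt and 38690 and 45426 with K198R. Each library with a form of Pax5 was above both Sirt7-/- EV libraries, but the difference did not pass (0.47, adjusted p = 0.426 for Pax5Wt and 0.43, adjusted p = 0.241 for K198R). Over all tested genes 38.7% with Pax5Wt and 49.6% with K198R did not overlap EV, in either direction. Unlike in Pax5-/- cells, the forms overlapped in *Pax5* count (-0.04 for K198R against Pax5Wt).

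With K198R the 6 other genes were lower in both libraries than in both EV libraries, a pattern that 24.4% of all tested genes showed. For 4 of the 6 (*Ebf1*, *Foxo1*, *Tcf12* and *Pou2af1*) both K198R libraries were above both EV libraries in Pax5-/- cells and below both here, as for 7.05% of the 11910 genes tested in both tables. *Foxo1* was at 4213 and 4256 in Sirt7-/- EV cells, 4496 and 4034 with Pax5Wt and 3134 and 2905 with K198R (-0.49 ± 0.119 against EV, adjusted p = 0.0619). *Pou2af1* was at 31855 and 34080, 32735 and 31299, and 25201 and 25799 (-0.37 ± 0.0979, adjusted p = 0.0806). Both genes were also lower with K198R than in both Pax5Wt libraries, without passing (-0.50, adjusted p = 0.164 and -0.33, adjusted p = 0.27). Between K198R and Pax5Wt 37.7% of all tested genes did not overlap, in either direction. With the replicate block *Foxo1* passed against EV (adjusted p = 0.0135) and against Pax5Wt (0.0361), and *Pou2af1* against EV (0.047).

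*Ebf1* was at 9159 and 10746 in EV cells, 8458 and 9980 with Pax5Wt and 7322 and 8370 with K198R (-0.34 ± 0.127, adjusted p = 0.192). *Tcf3* was at 14257 and 16946, 15173 and 15537, and 12716 and 12685 (-0.29, adjusted p = 0.225). *Lef1* was at 12970 and 10726, 10740 and 9958, and 10610 and 8925 (-0.28, adjusted p = 0.365), and *Tcf12* was at -0.26 (adjusted p = 0.317). The difference of *Lef1* between K198R and Pax5Wt was -0.09 here, against -1.98 in Pax5-/- cells, and these values were not tested against each other. The median of the 7 genes was -0.29 for K198R against EV, against 0.01 over all genes tested.

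Other cell markers moved with K198R in these cultures. The summed level of the immature and mature B cell markers was 6082 and 9063 with EV, 12497 and 25388 with Pax5Wt and 24023 and 57794 with K198R. Of 10 tested markers 5 rose and 1 fell with K198R against EV, with a median log2 fold change of 2.73, led by the class II genes *H2-Aa* (4.30) and *H2-Ab1* (3.43) and by *Cd74* (3.18). T cell markers summed to 4972 and 2505 with EV, 2336 and 932 with Pax5Wt and 1559 and 796 with K198R, and 2 of 7 fell, *Lck* (-2.83) and *Tcf7* (-2.09). Stroma markers, which the OP9 feeder expresses and a sort for the marker of the vector is meant to leave out, summed to 10372 and 14415, 16543 and 35063, and 12530 and 26545. Among plasma cell markers *Prdm1* (-2.79), *Jchain* (-1.76) and *Mzb1* (-1.08) fell with K198R against EV. *Creb3l2*, *Irf4*, *Sdc1* and *Xbp1* of that list were not called. The part of these shifts in the values of the 7 genes was not tested. Of 14 B lineage target genes, 1 rose with K198R, *Cd79a* (0.57), and 2 fell, *Vpreb3* (-1.36) and *Il7r* (-1.13).

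**Figure D5:**
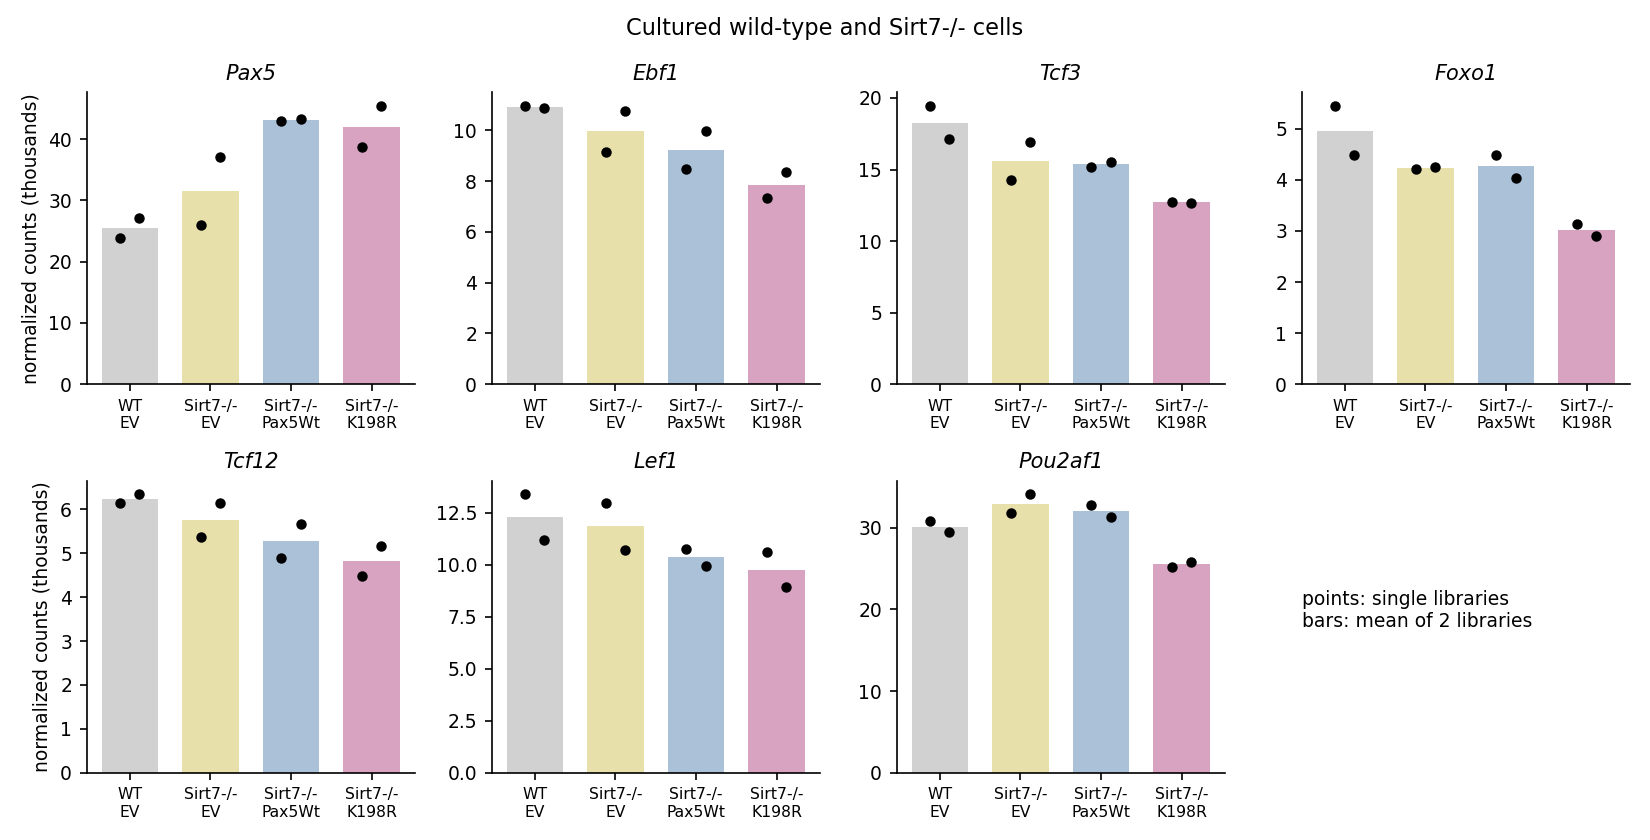
Normalized counts (linear axis from 0, in units of 1000) of the 7 genes in cultured wild-type cells with EV and Sirt7-/- cells with EV, Pax5Wt or K198R; points are single libraries and bars the mean of 2. Pax5 is higher with Pax5Wt and K198R, and for the 6 other genes both K198R points lie below both Sirt7-/- EV points.

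Per kilobase, *Pou2af1* was first in all 4 cultured groups (10004 to 12933) and *Tcf12* last (311 to 402). *Lef1* came just above *Ebf1* (1399 and 1118 in wild-type EV cells), whereas it was last in Pax5-/- EV cells, in a table that was normalized separately. *Tcf3* (4525) stood above *Pax5* (2880) in wild-type EV cells, overlapped it in Sirt7-/- EV cells (3863 ± 471 and 3564 ± 888) and was below it with Pax5Wt (3802 and 4873) and K198R (3144 and 4751).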

How the data were processed

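Per the study's methods, reads (150-bp paired-end) were quantified by the authors with Salmon on mm10 and deposited as DESeq2 median-of-ratios normalized counts (a signal, not raw counts). Peak lists were deposited with MACS2 fold enrichment over input (a ratio) and −log10 q. The submitters' processing notes give no versions. Rows without a symbol held 1.77% (Pax5-/-) and 1.87% (cultured) of counts. All sorted values divided into whole reads (within 0.01).

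Log2(normalized count + 1) was fitted with limma 3.58.1 (R 4.3.3, variance trend), 4 groups per table, keeping genes with at least 10 in at least 2 libraries, calls at Benjamini-Hochberg adjusted p below 0.05. Fold changes of low genes are understated on this scale. edgeR 4.0.16 and DESeq2 1.42.0 on whole reads of the sorted table were alternatives. With 2 libraries per group an exact permutation p cannot go below 0.33. Per the study's methods, RNA-seq replicates were made on different days.

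The genes, the gene lists and the tests were chosen with earlier results of these data known. Besides the 7 genes, up to 3 called genes per list were named by size of change (2 where none was called). Where plasma cell, NK cell or erythroid markers were named, every called gene was given. Genes named for their level (*Dntt*, *Cd79a*, *Cd3e*, *Thy1*, *Jchain*, *Tcf7*, *Id2*, *Blnk* and *Lck*) were chosen after their values were seen. Pro-B and pre-B libraries that share a number in their labels were taken to come from 1 mouse (correlation of deviations 0.080 in wild type, 0.156 in Sirt7-/-). The labels do not say what the number stands for. In the Pax5-/- and cultured tables no source says which numbers share a day, but libraries of one number deviated together in every pair of groups (0.264 to 0.383 and 0.156 to 0.428), so both fits are given where they differ. Gene spans are from GENCODE M21. One K198R list carries another replicate number inside its peak names. Input libraries were not used here.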

Additional observations from a re-analysis of the deposited data

Results flagged for a closer look

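In 4 genes K198R libraries lay above both EV libraries in Pax5-/- cells and below both EV libraries in Sirt7-/- cells, a pattern that 7.05% of the 11910 genes tested in both tables showed. The log2 fold changes against EV were 1.34 and -0.34 for *Ebf1*, 1.25 and -0.49 for *Foxo1*, 0.28 and -0.26 for *Tcf12* and 0.72 and -0.37 for *Pou2af1*, in Pax5-/- and Sirt7-/- cells. The difference between the 2 kinds of cell was not tested. Per the study the cells also differ in genotype and strain. The *Pax5* count, insert included, was higher with K198R than with EV by 3.12 on the log2 scale in Pax5-/- cells and by 0.43 in Sirt7-/- cells. The parts of these differences cannot be told apart.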

How the results depend on the processing

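Of 938 fold changes of the 7 genes under alternatives, 840 kept direction and side of the threshold, 36 lost a call, 9 gained one and 53 changed sign, none of the 53 being called at first. The pseudocount of 5 changed no call, and the cause of the changes below was not tested. In sorted cells, with the mouse as a replicate block for the stages and the interaction and the replicate number as a block between genotypes, no call of the 7 genes changed. In the other tables it changed 8 fold changes, all gaining a call. With the replicate block 5 of the 7 genes were called in place of 3 for K198R against K198Q (also *Ebf1* and *Pou2af1*). Over all genes 13.1% were called there in place of 5.01%. For K198R against EV in Sirt7-/- cells it was 2 in place of 0 (*Foxo1*, adjusted p = 0.0135, and *Pou2af1*, 0.047), with 11.6% of all genes in place of 4.83%. For K198R against Pax5Wt in those cells it was 1 in place of 0 (*Foxo1*, 0.0361), with 2.3% in place of 0.425%. In Pax5-/- cells the block also called *Pou2af1* for Pax5Wt against EV (0.00386), *Foxo1* for K198Q against EV (0.0111) and *Tcf12* for K198R against EV (0.0378), and changed no other call of the 7 genes. Over all genes it called 1343 in place of 434, 363 in place of 123 and 2834 in place of 1324 in these 3 comparisons. DESeq2 called 1 of the 7 genes (*Tcf12*) in place of 0 between genotypes in pre-B cells, with no share of all genes given for DESeq2. Requiring an absolute log2 fold change of 1.5 left 1 of 7 stage calls in wild type, 1 of 6 in Sirt7-/- cells, 2 of 4 for Pax5Wt against EV, 2 of 3 for K198Q against EV, 1 of 4 for K198R against EV, 2 of 3 for K198R against Pax5Wt and 1 of 3 for K198R against K198Q. No share of all genes is given for this setting or for the counts without 1 library below, so neither can be set against other genes. *Ebf1* lost its wild-type stage call with no filter on low values (adjusted p = 0.0815) and with scaling to the library sum (0.124), under which the median of all genes was -0.119 there, in place of -0.0351, and -0.138 for the stages in Sirt7-/- cells, in place of -0.0379, and *Lef1* lost its K198Q call with no filter (0.106).

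Without 1 library, which leaves a lone library assumed to vary like the other groups, the number called ranged from 5 to 7 and from 4 to 5 for the stages in wild-type and Sirt7-/- cells, 2 to 4 for Pax5Wt against EV, 1 to 2 for K198Q against EV, 3 to 4 for K198R against EV, 1 to 3 for K198R against Pax5Wt and 0 to 3 for K198R against K198Q. It was 0 in each of the other comparisons. Without 1 K198Q list the genes with a K198Q peak numbered 4 to 6 in place of 2, with no share of all genes given for a single list.

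Signs changed only for values that were not called. For the *Lef1* interaction edgeR gave 0.034 and DESeq2 0.028, in place of -0.02. Scaling to the library sum gave 0.013 for *Tcf3* with Pax5Wt in Pax5-/- cells, -0.025 and -0.039 for *Tcf12* with K198R against Pax5Wt and K198Q, and 0.018 for *Tcf3* with Pax5Wt in Sirt7-/- cells. Without 1 library, differences between genotypes ranged from -0.092 to 0.074 for *Pax5*, -0.064 to 0.076 for *Ebf1*, -0.17 to 0.0013 for *Tcf3* and -0.00054 to 0.11 for *Foxo1* in pro-B cells, and from -0.11 to 0.020 for *Tcf3* and -0.18 to 0.55 for *Lef1* in pre-B cells. Interactions ranged from -0.048 to 0.12 for *Tcf3*, -0.39 to 0.34 for *Lef1*, -0.22 to 0.0047 for *Pax5* and -0.022 to 0.086 for *Pou2af1*. In Pax5-/- cells *Tcf3* ranged from -0.067 to 0.062 (Pax5Wt), -0.071 to 0.091 (K198Q) and -0.00028 to 0.12 (K198R) against EV, from -0.069 to 0.093 for K198Q against Pax5Wt, and from -0.0036 to 0.13 and -0.032 to 0.13 for K198R against Pax5Wt and K198Q. *Tcf12* ranged from -0.029 to 0.038, -0.055 to 0.071 and -0.059 to 0.067 in the same 3 comparisons of forms, and *Lef1* from -0.64 to 0.13 for K198R against EV. For K198R against Pax5Wt *Ebf1* ranged from -0.064 to 0.17 and *Pou2af1* from -0.048 to 0.35. In cultured cells *Lef1* ranged from -0.19 to 0.083 between genotypes. For Pax5Wt against EV the ranges were -0.23 to 0.0086 for *Ebf1*, -0.14 to 0.11 for *Tcf3*, -0.090 to 0.0070 for *Pou2af1* and -0.070 to 0.086 for *Foxo1*. For K198R against Pax5Wt they were -0.16 to 0.074 for *Pax5* and -0.21 to 0.037 for *Lef1*.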

Other observations

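The genes whose levels ran most like those of each of the 7, by Pearson r of log2 values centred within each table over 24 libraries and 10571 genes, are given as a description, with shared libraries and no test. For *Ebf1* they were *Vpreb3* (0.934), *Akap12* (0.927) and *Dnase1* (0.920). For *Foxo1* they were *Slfn2* (0.940), *Scn4a* (0.937) and *Morc3* (0.924), and for *Pou2af1* *Cpm* (0.942), *Slc25a27* (0.916) and *Cblb* (0.905). For *Lef1* they were *Clip4* (0.910), *Gtf2ird1* (0.906) and *Wwc2* (0.899). For *Tcf3* they were *Pgls* (0.925), *Marcks* (0.918) and *Palm* (0.904), and for *Tcf12* *Mbtd1* (0.901), *4930522L14Rik* (0.888) and *Ssh2* (0.887). For *Pax5*, over the 8 sorted libraries alone, they were *BC051226* (0.996), *Atg13* (0.993) and *Igkv4-92* (0.992). Among the 7 themselves, with *Pax5* left out, *Foxo1* and *Pou2af1* were most alike (0.901), *Ebf1* and *Foxo1* were at 0.718, and *Ebf1* and *Tcf3* at 0.383. *Lef1* ran opposite to *Tcf3* (-0.560), *Pou2af1* (-0.506), *Foxo1* (-0.501) and *Tcf12* (-0.435).

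*Thy1* took a course in Pax5-/- cells like that of *Lef1*, being at 23.8 and 31.5 with EV, 59.0 and 92.5 with Pax5Wt, 55.3 and 85.4 with K198Q and 8.09 and 8.15 with K198R. *Dntt*, which pro-B cells in BM express strongly, was between 1.80 and 20.3 in all 8 Pax5-/- libraries, against 1315 to 18007 in the cultured table, which was normalized separately.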
